A study of Mus musculus with 88 samples.

Results

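The genes described here encode 10 enzymes that write or erase histone acetylation in fully grown germinal vesicle (GV) oocytes of the mouse. They are the deacetylases Hdac1, Hdac2, Hdac3 and Hdac4 and the acetyltransferases Ep300, Crebbp, Kat2a, Kat5, Kat7 and Kat8. They were chosen by name as enzyme genes, and no measured level entered the choice rule. Each gene was matched to a single feature of an oocyte transcript annotation, so the 10 genes were 10 of the 38540 features of the count table. All 10 had a mean count of at least 10 over the oocytes, as did 12408 features in all, and no member was lost to that filter.

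Acetylation neutralises the positive charge of lysines in histone tails and loosens their hold on DNA, and it also makes a binding site for bromodomain proteins. Acetyltransferases transfer the acetyl group from acetyl-CoA, and deacetylases remove it, mostly as parts of large complexes. In growing oocytes the chromatin passes from a transcribing, non-surrounded nucleolus (NSN) configuration to a transcriptionally silent, surrounded nucleolus (SN) configuration. Histones of the GV oocyte are acetylated, and they are widely deacetylated when meiosis resumes. HDAC2 is known as the main histone deacetylase of the mouse oocyte, with HDAC1 able to take over part of its role.

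RNA and DNA were separated from single oocytes, and the RNA was made into cDNA libraries without molecular identifiers, so that the counts are of reads, which are not independent molecules. The oocytes came from virgin C57BL/6Babr females, 12 weeks old for the 42 young oocytes and between 44 and 54 weeks old for the 46 aged oocytes, and no animal carried an engineered allele or received a treatment that the labels name. The configuration of each oocyte was not seen under the microscope but assigned in the study from transcripts of the same oocytes, by genes known to be higher in SN oocytes. Of the 87 oocytes with an assignment, 30 were young NSN, 12 young SN, 37 aged NSN and 8 aged SN, and 1 aged oocyte without one was kept apart. Whether any of the 10 genes was among those used for the assignment is not given in the sources used here, so the SN and NSN values are a description of classes made from this RNA.

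The study states that the oocytes came from 3 young and 7 aged mice. The sources used here do not name the mouse behind each oocyte, so the oocytes of an age cannot be treated as replicates. Each age group was taken as a single sample, and differences between ages or configurations are given with no p-value. Levels are CPM, the counts of a gene summed over a group and scaled to a common library total, and the bounds in brackets are exact 95% intervals for counting error only. Spreads between single oocytes are given as SD, median and range, and they describe these oocytes. A ratio is called past 1.2-fold, 0.263 on the log2 scale, only as a statement of size. Oocyte numbers formed 3 runs of consecutive numbers in each age group, 1 to 7, 17 to 24 and 33 to 39 in young and 9 to 16, 25 to 31 and 41 to 48 in aged, and values per run are given where they bear on a result. What a run stands for is not stated in the labels.

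Total counts ran from 976456 to 8231046 per oocyte. The median was 3002989 for young and 2379884 for aged ones. The cells carried oocyte RNA, since 8 of 10 oocyte marker genes had a feature and their summed level was between 9010 and 22050 CPM in each of the 87 oocytes. Granulosa cell markers summed to between 6.14 and 83.8 CPM, with overlapping ranges in the 4 groups, and the globin genes Hba-a1 and Hbb-bs had no count in any group. No 2 oocytes had identical counts.

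Because single-end reads of 100 bases were counted, it matters whether these enzymes share stretches of that length with other genes. For 9 of the 10 genes, none of the 100-base stretches of their protein-coding transcripts occurred in a transcript of another GENCODE M21 gene, related enzymes included. The longest stretch that Hdac1 and Hdac2 share was 17 bases and that of Ep300 and Crebbp 30 bases, and both are shown, 5′ to 3′ as in the transcripts, because they bound how far a read of one paralog can match the other.
Hdac1 and Hdac2, 17 bases: ccagataatatgtctga
Ep300 and Crebbp, 30 bases: acaggtatcatttctgtgagaagtgtttca

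Hdac1 was the exception. Of its 1939 different 100-base stretches, 907 or 46.8% also occurred in processed pseudogenes, nearly all of them in Gm10093 on chromosome 17 at 78491582 to 78493025, plus strand. Within the Hdac1 coding sequence of 1449 bases, 67.0% of the stretches were shared with Gm10093, and the longest identical run was 450 bases, from coding position 720 to 1169. Its first 100 bases, positions 720 to 819, are shown because a read from them fits the gene and the pseudogene equally well.
Hdac1 and Gm10093, 100 bases: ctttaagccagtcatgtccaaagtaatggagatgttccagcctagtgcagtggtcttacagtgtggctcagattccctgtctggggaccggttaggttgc

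The count table had no feature over Gm10093, so reads placed there were not in the Hdac1 count. Primary alignments were used for counting, and the way in which reads with equally good places were assigned to a primary one was not tested. The absolute level of Hdac1 is therefore uncertain, and its ratios between groups assume that the share of reads placed at the gene was alike in all groups.

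The members lie on 9 chromosomes of GRCm38. Hdac1 is on chromosome 4 at 129516104 to 129542713 (minus strand), Hdac2 on chromosome 10 at 36973978 to 37001891 (plus) and Hdac4 on chromosome 1 at 91928762 to 92180859 (minus). Ep300 is on chromosome 15 at 81585100 to 81652450 (plus) and Crebbp on chromosome 16 at 4080934 to 4214100 (minus). Kat2a at 100704745 to 100712765 and Kat7 at 95274259 to 95310360 are both on the minus strand of chromosome 11. Kat5 is on chromosome 19 at 5603017 to 5610238 (minus) and Kat8 on chromosome 7 at 127912454 to 127925832 (plus). The oocyte features covered the annotated genes almost whole, with span overlaps of 0.94 to 1 as a share of the joint span, and no other feature overlapped them on the same strand. The Hdac4 feature began inside the annotated gene, at an offset of -14840 bases from its first GENCODE start. On the opposite strand, Kat5 overlapped Rnaseh2c (mean count 36.6 beside 91.8 for Kat5) and Kat8 overlapped Prss8 (20.3 beside 345), and as the sources used here do not say whether counting used strand, reads of these pairs cannot be told apart.

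Upstream windows of 250 bases before the RefSeq start (GRCm38.p6) were at hand for 8 of the members, in 10 windows, and not for Hdac1 and Hdac3. Windows of Hdac2, Hdac4 and Kat2a are shown because these 3 genes were past 1.2-fold higher in SN than in NSN oocytes of young or aged mice and no annotated exon of the gene lies in them. Capitals mark the GC box GGGCGG, the CCAAT box CCAAT and the short cAMP response element TGACG, each searched on both strands.
Hdac2, chr10:36974294-36974543, plus strand: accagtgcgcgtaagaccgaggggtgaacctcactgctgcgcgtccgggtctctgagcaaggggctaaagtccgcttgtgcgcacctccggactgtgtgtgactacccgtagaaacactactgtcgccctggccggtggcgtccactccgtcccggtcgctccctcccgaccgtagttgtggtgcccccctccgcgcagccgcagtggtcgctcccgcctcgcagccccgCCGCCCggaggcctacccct
Hdac4, chr1:92180342-92180591, minus strand: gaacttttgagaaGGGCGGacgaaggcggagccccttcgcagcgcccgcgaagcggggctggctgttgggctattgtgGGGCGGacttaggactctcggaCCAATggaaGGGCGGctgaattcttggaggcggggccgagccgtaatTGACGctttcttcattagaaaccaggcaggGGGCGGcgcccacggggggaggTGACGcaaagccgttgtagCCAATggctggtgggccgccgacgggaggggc
Kat2a, chr11:100712468-100712717, minus strand: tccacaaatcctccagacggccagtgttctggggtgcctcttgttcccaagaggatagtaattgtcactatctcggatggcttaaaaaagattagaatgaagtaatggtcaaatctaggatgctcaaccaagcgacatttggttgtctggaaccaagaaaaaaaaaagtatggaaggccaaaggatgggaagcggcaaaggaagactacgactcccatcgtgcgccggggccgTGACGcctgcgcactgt

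The 3 windows had little in common. Their GC content was 68.8% for Hdac2, 65.2% for Hdac4 and 48.8% for Kat2a, and Hdac4 held 4 GC boxes where Kat2a held none. Over all members, 7 of 10 windows held a GC box, against 32.7% of 32851 windows of all genes. By gene it was 6 of 8, as Kat5 and Kat8 each had 2 windows. The Crebbp and Ep300 windows lay wholly in annotated exons of the gene, with 250 exon bases each. The Kat5 windows held 188 and 143 exon bases. The member shares given here are therefore not of sequence outside exons alone. A CCAAT box stood in 5 of 10 windows against 33.8%, the short element TGACG in 6 of 10 against 17.8%, and the full cAMP response element TGACGTCA, which contains the short element, in none of 10 against 1.55%. The oocyte features of Hdac2, Hdac4 and Kat2a began 566, 518 and 298 bases before the RefSeq start used here, that is, upstream of the windows shown.

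**Figure D1:**
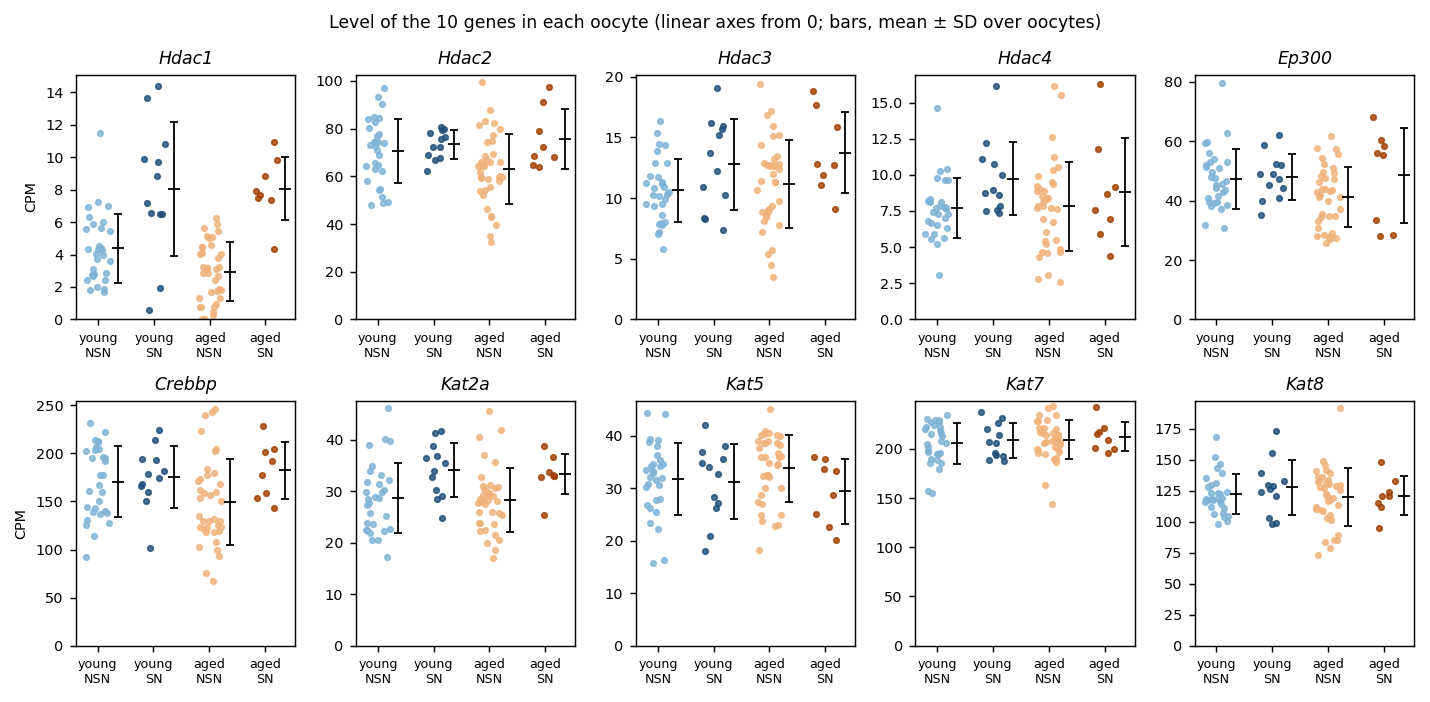
Each panel plots the CPM of 1 gene (linear axis from 0) in every oocyte of the young NSN (n = 30), young SN (n = 12), aged NSN (n = 37) and aged SN (n = 8) groups, with the mean and SD over oocytes as a bar beside the points. In Hdac1, 7 of 8 aged SN oocytes lie above the highest aged NSN oocyte at 6.24 CPM, while the points of Kat7 lie between 143 and 244 CPM with similar means in all groups.

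To compare levels between genes, the CPM were divided by the exon length of each gene in kilobases. Kat8 and Kat7 were the most abundant, at 63.9 and 57.3 CPM per kb over the 87 oocytes. KAT8 is the acetyltransferase of lysine 16 of histone H4, and KAT7 acetylates histones H3 and H4 as the enzyme of the HBO1 complex. Hdac2 (16.1), Crebbp (15.2) and Kat5 (13.7) followed, then Kat2a (9.90), Hdac3 (5.59) and Ep300 (4.49), and Hdac1 (2.34) and Hdac4 (0.967) were the lowest. The order per kb was the same in the young NSN, young SN and aged SN groups, and in aged NSN oocytes Kat5 (14.2) and Crebbp (13.7) changed places. Neighbours in this order that are close, such as Kat8 and Kat7 or Hdac2, Crebbp and Kat5, could not be ordered safely, as the values depend on the length used. With the longest coding transcript as length, Hdac2 would stand at 20.9, Crebbp at 15.2 and Kat5 at 15.0 CPM per kb. The order over the 87 oocytes was the same with that length. Among the deacetylases, Hdac2 stood above Hdac1 in every group, at 14.6 against 1.49 CPM per kb in aged NSN and 17.9 against 3.94 in aged SN oocytes.

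Hdac1, which encodes a class I deacetylase found in SIN3, NuRD and CoREST complexes, had the lowest CPM of the members and varied most between oocytes and between groups. Its level was 4.40 CPM (3.99 to 4.84) in young NSN, 8.17 (7.29 to 9.13) in young SN, 3.04 (2.70 to 3.42) in aged NSN and 8.04 (6.84 to 9.38) in aged SN oocytes. Over single oocytes, it ran from 1.71 through a median of 4.15 to 11.5 CPM in young NSN and from 0.606 through 8.01 to 14.4 in young SN. In aged NSN oocytes it ran from 0 through 3.12 to 6.24, and in aged SN oocytes from 4.35 through 7.80 to 10.9. The aged SN oocytes thus stood almost clear of the aged NSN oocytes, whereas the young groups overlapped widely, with 2 of 12 young SN oocytes above the highest young NSN oocyte and 1 below the lowest.

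The counts behind these levels were few, between 0 and 54 reads per oocyte and 13.5 on average. Hdac1 had no read in 2 aged NSN oocytes, where 3 counts, the most that a count of 0 allows, would be 1.17 and 2.20 CPM. At least 1 read was found in 35 of 37 aged NSN oocytes and in all oocytes of the other groups.

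On the log2 scale, Hdac1 was higher in SN than in NSN oocytes by 0.89 (0.68 to 1.11) in young and by 1.40 (1.11 to 1.69) in aged mice, which is 1.86-fold and 2.64-fold. The order held in each of the 6 runs, with log2 ratios of 1.22, 0.88 and 0.53 in the young and 0.83, 1.70 and 1.35 in the aged runs, although a run held only 1 to 6 SN oocytes. Of all features tested, 12% were higher in SN oocytes in all 6 runs and 7.21% lower in all 6. Among the members only Hdac1 did so. Whether the difference was larger in aged than in young mice was not tested.

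Hdac1 was also the member with the largest difference between ages. Over all oocytes it was lower in aged ones by a log2 ratio of -0.48 (-0.66 to -0.31), which was -0.27 without the young run 17 to 24 and -0.67 without the young run 1 to 7, and in NSN oocytes by -0.53 (-0.75 to -0.31), where 10 of 37 aged oocytes lay below the lowest young one. In SN oocytes the ratio was -0.02 (-0.31 to 0.26), with counts too few to place a difference smaller than those bounds. The NSN level was 3.80, 4.99 and 4.74 CPM in the 3 young runs and 3.11, 2.84 and 3.15 CPM in the 3 aged runs, so the runs of the 2 ages did not overlap. In NSN oocytes, 7.95% of all features had 3 aged runs all lower than the 3 young runs and 5.14% all higher, and Hdac1 was the only member with either. The Hdac1 level also went with depth, with a Spearman correlation of 0.27 to the total count over the 67 NSN oocytes of both ages. Aged libraries were the shallower ones, so this correlation cannot be told apart from the age difference. With every oocyte thinned to 900000 counts the age ratio in NSN oocytes was -0.60, and over all alternatives it lay between -0.68 and -0.41. Thinning leaves the expected CPM of an oocyte unchanged, so it cannot decide whether depth bears on this ratio. The ratio in SN oocytes was less steady, at 0.29 after thinning, 0.36 among oocytes whose name ends in A and -0.39 among the others.

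**Figure D2:**
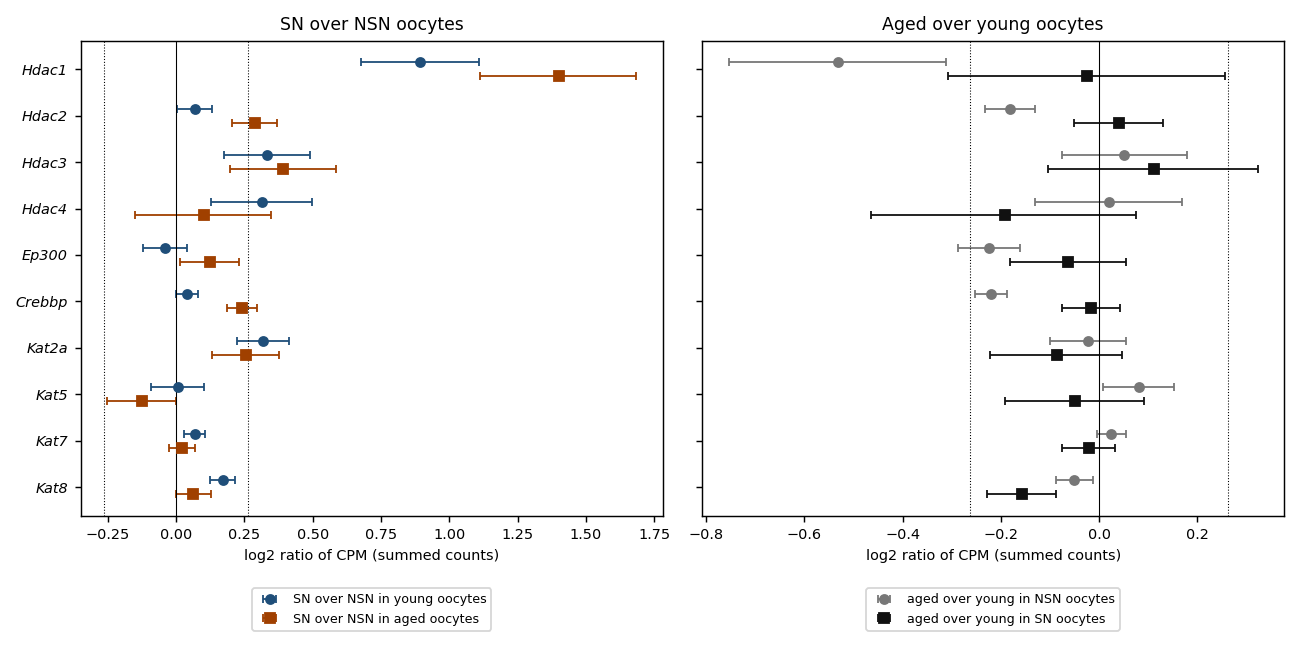
The panels plot the log2 ratio of CPM from summed counts for each gene, SN over NSN in the left panel (circles young, squares aged) and aged over young in the right panel (circles NSN, squares SN), with bars for the 95% counting interval and dotted lines at 1.2-fold. Hdac1 lies at 0.89 and 1.40 in the left panel and at -0.53 for NSN oocytes in the right panel, farther from 0 than any other gene.

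**Figure D3:**
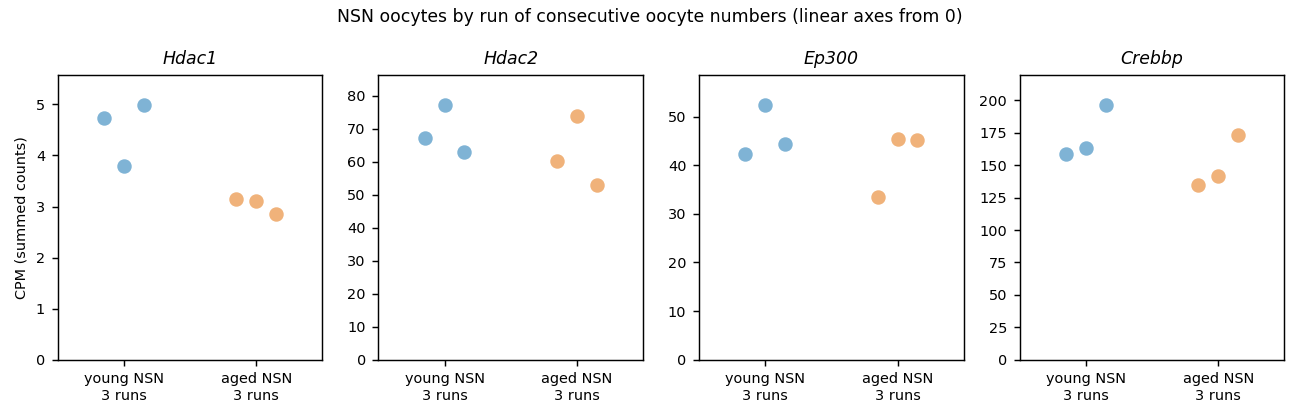
Each panel plots the CPM from summed counts of NSN oocytes (linear axis from 0) in the 3 young and the 3 aged runs of consecutive oocyte numbers. The Hdac1 points of the aged runs, 2.84 to 3.15 CPM, lie below those of the young runs, 3.80 to 4.99 CPM, whereas the points of Hdac2, Ep300 and Crebbp overlap.

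Hdac2 encodes the class I deacetylase closest to HDAC1. It was measured in every oocyte with 63 to 658 reads, at 70.2 CPM (68.5 to 71.9) in young NSN, 73.6 (70.9 to 76.3) in young SN, 61.9 (60.3 to 63.5) in aged NSN and 75.6 (71.9 to 79.5) in aged SN oocytes. Aged NSN oocytes ran from 32.6 through a median of 64.1 to 99.3 CPM, beside 47.8, 72.9 and 97.0 in young NSN oocytes, so 6 of 37 aged oocytes lay below the young range. The log2 ratio of aged over young NSN oocytes was -0.18 (-0.23 to -0.13), short of 1.2-fold, and the runs overlapped at 52.8 to 73.9 CPM in aged and 62.9 to 77.1 CPM in young. Without the young run 1 to 7 the ratio was -0.06 and without the aged run 25 to 31 it was -0.09, whereas it passed 1.2-fold at -0.30 without the aged run 9 to 16. In aged mice, SN oocytes had more Hdac2 than NSN oocytes, with a log2 ratio of 0.29 (0.21 to 0.37), just past 1.2-fold. That ratio was 0.22 without the aged run 25 to 31 and 0.17 without the run 41 to 48, but 0.45 without the run 9 to 16, and in the run 9 to 16 it was -0.16 with 2 SN oocytes.

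Hdac3, the catalytic subunit of NCoR complexes (chromosome 18 at 37936972 to 37954988, minus strand), had low counts of 11 to 129 reads per oocyte. Its level was 10.5 CPM (9.85 to 11.2) in young NSN and 10.9 (10.2 to 11.6) in aged NSN oocytes, and 13.2 (12.1 to 14.4) in young SN and 14.3 (12.7 to 16.02) in aged SN oocytes. SN oocytes stood higher by log2 ratios of 0.33 (0.18 to 0.49) in young and 0.39 (0.20 to 0.58) in aged mice, and by age the gene differed by 0.05 in NSN oocytes. Single oocytes ran from 5.82 through 10.4 to 16.4 CPM in young NSN and from 7.32 through 12.996 to 19.1 CPM in young SN, and from 3.50 through 11.4 to 19.4 CPM in aged NSN and from 9.08 through 12.8 to 18.8 CPM in aged SN oocytes. The ranges thus overlapped in both ages. In young mice the ratio rested on the run 17 to 24, without which it was 0.02, while it was 0.53 without the run 33 to 39, and in the aged run 9 to 16 it was -0.06. With every oocyte thinned to 900000 counts the aged ratio was 0.12.

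Hdac4, a class IIa deacetylase with little activity of its own that acts through partner proteins, was the least abundant member per kb. Its 3 to 71 reads per oocyte gave 7.71 CPM (7.16 to 8.29) in young NSN, 9.58 (8.62 to 10.6) in young SN, 7.81 (7.26 to 8.40) in aged NSN and 8.39 (7.16 to 9.76) in aged SN oocytes. The SN over NSN log2 ratio was 0.31 (0.13 to 0.50) in young mice, or 0.23 without the run 1 to 7. In aged mice it was 0.10 (-0.15 to 0.35), where the interval holds both no difference and more than 1.2-fold. Under the alternatives the aged ratio ran from -0.17 to 0.48, so its direction was not settled.

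Ep300 and Crebbp encode the paralogous coactivators p300 and CBP, which acetylate lysines 18 and 27 of histone H3 at enhancers and promoters. Both were somewhat lower in aged NSN oocytes. Ep300 was at 47.5 CPM (46.1 to 48.9) in young NSN and 40.7 (39.4 to 42.0) in aged NSN oocytes, a log2 ratio of -0.22 (-0.29 to -0.16). In young and aged SN oocytes it was at 46.2 and 44.2 CPM, a log2 ratio of -0.06. Under the alternatives the ratio in SN oocytes ran from -0.36 to 0.40, past 1.2-fold in both directions. Single aged NSN oocytes ran from 25.6 through a median of 41.9 to 61.8 CPM of Ep300, against 30.7, 46.1 and 79.8 in young NSN oocytes, and 9 of 37 aged ones lay below the young range. Crebbp was at 173 CPM (171 to 176) in young NSN and 149 (146 to 151) in aged NSN oocytes, a log2 ratio of -0.22 (-0.25 to -0.19), and at 178 and 176 CPM in young and aged SN oocytes. Its aged NSN oocytes spread from 67.2 through 135 to 246 CPM and its young NSN oocytes from 92.3 through 172 to 231 CPM, so the aged range reached past the young one at both ends. All 8 aged SN oocytes had more Crebbp than the aged NSN median, and the aged SN over NSN log2 ratio was 0.24 (0.19 to 0.30), or 0.57 among oocytes with the name suffix A and -0.02 among those without.

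Neither gene reached 1.2-fold between ages by the counts summed over all oocytes of a group, and neither difference was even over runs. The aged run 41 to 48 was low for both, with 33.4 CPM of Ep300 and 135 CPM of Crebbp in NSN oocytes, while the run 25 to 31 had 45.2 and 173 CPM. The Ep300 ratio was -0.07 without the run 41 to 48 and -0.10 without the young run 1 to 7. It was past 1.2-fold at -0.30 without either of the aged runs 25 to 31 and 9 to 16. At -0.27 it was just past 1.2-fold without either of the young runs 17 to 24 and 33 to 39, and with the name suffix A. The Crebbp ratio was -0.12 without the young run 17 to 24 and -0.13 without the aged run 41 to 48. It was past 1.2-fold at -0.33 without the aged run 25 to 31 and at -0.28 without the young run 1 to 7. By the median of single oocytes it was -0.35. The same run stood apart among the 8 aged SN oocytes, where Ep300 was 28.1, 28.5 and 33.3 CPM in the 3 oocytes of the run 41 to 48 and between 55.5 and 68.1 CPM in the 5 others. Crebbp differed with the name suffix as well: among aged NSN oocytes, those with the suffix A had a log2 ratio of -0.42 to those without it, and -0.17 among young NSN oocytes. What the suffix means is not given in the labels. Within oocytes with the suffix, the aged over young NSN ratio of Crebbp was -0.33, and without the suffix it was -0.09.

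Kat2a encodes GCN5, the acetyltransferase of the SAGA and ATAC complexes. It was at 28.8 CPM (27.7 to 29.9) in young NSN and 28.4 (27.3 to 29.5) in aged NSN oocytes, and at 35.9 (34.1 to 37.9) in young SN and 33.8 (31.3 to 36.5) in aged SN oocytes. Of the 12 young SN oocytes, 10 lay above the young NSN median of 28.7 CPM, and 7 of the 8 aged SN oocytes above the aged NSN median of 28.3 CPM, while none lay outside the NSN range. The log2 ratio of SN over NSN oocytes was 0.32 (0.22 to 0.41) in young mice, past 1.2-fold, and 0.26 (0.13 to 0.38) in aged mice, just short of it. The young ratio was 0.12 without the run 17 to 24, 0.50 without the run 33 to 39 and 0.19 after thinning.

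Kat5, Kat7 and Kat8 belong to the MYST family. By the counts summed over all oocytes of a group, none was past 1.2-fold in any of the 5 comparisons. Kat5, the enzyme of the TIP60 complex, was at 31.8 CPM (30.6 to 32.9) in young NSN, 31.9 (30.1 to 33.7) in young SN, 33.6 (32.4 to 34.8) in aged NSN and 30.8 (28.4 to 33.3) in aged SN oocytes. It was the only member below 0 in the aged SN over NSN ratio, at -0.13 (-0.25 to -0.00039), which was 0.0017 without the run 25 to 31 and past 1.2-fold at -0.34 without the run 41 to 48. By age in SN oocytes, Kat5 was at -0.05, or -0.30 without the aged run 41 to 48. Kat7 held 204 CPM (201 to 207), 214 (209 to 219), 208 (205 to 211) and 211 (205 to 217) in the same order of groups, and its SD over oocytes was between 15.1 and 20.7 CPM, so the oocytes of all groups overlapped almost fully. Kat8 was at 121 CPM (119 to 123) in young NSN, 136 (132 to 140) in young SN, 117 (115 to 119) in aged NSN and 122 (117 to 127) in aged SN oocytes. Its young SN over NSN log2 ratio of 0.17 (0.12 to 0.22) fell short of 1.2-fold, and the mean over single young SN oocytes was 128 CPM with an SD of 22.01, as the deepest library, young oocyte 24A, also had the highest Kat8 level of the 42 young oocytes at 173 CPM and weighs most in a sum. Without it the young SN over NSN ratio was 0.06, though without the young run 33 to 39 it was 0.31 and past 1.2-fold. The aged over young ratio in SN oocytes went from -0.16 (-0.23 to -0.09) to -0.05 without oocyte 24A. It was -0.29 without the young run 33 to 39 and -0.27 without the aged run 41 to 48. Over all alternatives it ran from -0.33 to 0.04.

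Counted over the set, 1 of 10 members was past 1.2-fold lower in aged than in young oocytes and none higher, against 5.78% of all features lower, 2.35% higher and 8.13% in either direction. In NSN oocytes it was again 1 lower and none higher, against 7.3%, 2.63% and 9.93% of features, and in SN oocytes none of 10 in either direction, against 11% lower, 11.7% higher and 22.7% in all. SN over NSN, 4 of 10 were higher in young mice (Hdac1, Hdac3, Hdac4 and Kat2a) and none lower, against 14.5%, 7.57% and 22.1% of features higher, lower and in all. In aged mice 3 of 10 were higher (Hdac1, Hdac2 and Hdac3) and none lower, against 23.8%, 19.7% and 43.5%. The median log2 ratio of the members was 0.12 in young and 0.18 in aged mice for SN over NSN, beside 0.01 and -0.005 for all features tested. For aged over young it was -0.08 over all, -0.04 in NSN and -0.04 in SN oocytes, beside medians between -0.009 and -0.006 for all features. With 10 genes, counts of 3 and 4 are close enough to these background shares that nothing is read from them about the set. Young oocyte 24A decided 2 of the young calls, since without it Hdac3 and Kat2a were each at 0.257 and short of 1.2-fold.

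The spread between oocytes of a group, beyond the noise of counting, was taken as the squared coefficient of variation less the part that counting gives. It was larger in aged than in young oocytes for 7 of 10 members and for 73.8% of all features, with a median log2 ratio of 0.53 for the members and 0.46 for the features. Hdac4 (1.33), Crebbp (0.96), Ep300 (0.95) and Hdac2 (0.94) had the highest ratios, followed by Kat8 (0.69), Hdac3 (0.37) and Hdac1 (0.34). Without the aged run 25 to 31, Hdac3 was at -0.57 and Hdac1 at -0.0003. Without the aged run 9 to 16 they were at 1.06 and 0.45. After thinning to 900000 counts Hdac3 was at -0.78. Kat5 (-0.62), Kat7 (-0.54) and Kat2a (-0.41) were less dispersed in aged oocytes. The ratio of 6.94%, 8.67% and 11.6% of features was lower still. Without the young run 1 to 7 these genes were at 0.04, 0.11 and -0.06, and with all 88 oocytes at 0.11, 0.91 and -0.44. Without the young run 17 to 24 they were at -0.87, -0.85 and -0.37. The direction for Kat5 and Kat7 was thus not steady. Dispersion itself was highest in Hdac1, at 0.289 in young and 0.366 in aged oocytes, and lowest in Kat7, at 0.00604 and 0.00417. The median of the members was 0.13 without the aged run 25 to 31, so it rested in part on that run. With every oocyte thinned to 900000 counts, 8 members kept a value and their median was 0.22. In NSN oocytes alone the median of the 10 members was 0.54, and it went to -0.088 for the 8 members after thinning, against 0.43 for the same 8 without it. The features' own median in NSN oocytes was 0.52.

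**Figure D4:**
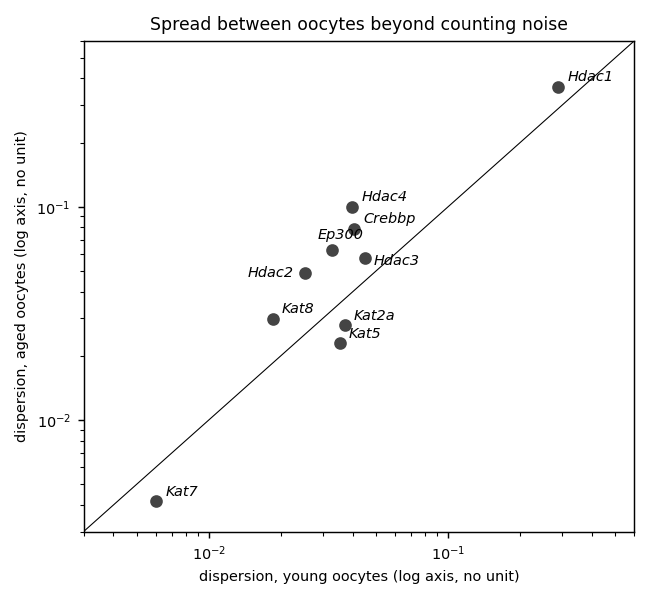
The plot sets the dispersion of each member in aged oocytes (n = 45) against that in young oocytes (n = 42) on log axes, with a line of equal values. Kat2a, Kat5 and Kat7 lie below the line, Hdac1 lies far above the others on both axes, and Kat7 is the least dispersed.

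The members did not move as a block from oocyte to oocyte. Over the 67 NSN oocytes, Spearman correlations of CPM between 2 members ran from -0.41 for Ep300 and Kat5 to 0.47 for Hdac2 and Kat8, and Hdac3 and Kat8 (0.41) and Hdac1 and Crebbp (0.36) followed. These points share their library and its depth, and the members' own correlations with the total count ran from -0.31 for Kat8 to 0.27 for Hdac1. Among named features with a mean count of at least 50, those most like Crebbp were Birc6 (0.83) and Pik3c2a (0.82), those most like Kat8 were Akr1b3 (0.77) and Atp5a1 (0.77), and those most like Ep300 were Wnk1 (0.76) and Fat1 (0.73). Hdac2 went with Crk (0.71) and Rspo2 (0.69), and Kat7 with Rltpr (0.70) and Mfap2 (0.62). Kat2a went with Slc44a2 (0.68) and Ezh1 (0.60), and Kat5 with Elp3 (0.62) and Anapc2 (0.62). Some of these values differed between ages. Kat7 and Mfap2 had 0.44 in aged and 0.75 in young NSN oocytes, and Ep300 and Fat1 had 0.78 and 0.58.

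Other subunits and enzymes of the acetylation machinery were taken from lists of 123 further genes, of which 116 had a feature and 102 passed the count filter. Between ages in NSN oocytes, none of the 102 was past 1.2-fold higher and 1 was lower, against 2.63% and 7.3% of all features. That gene was Hcfc1, a chromatin cofactor of the NSL complex of KAT8, at 59.5 CPM in young and 47.98 in aged NSN oocytes, a log2 ratio of -0.31 (-0.37 to -0.25). SN over NSN, 14 were higher and 3 lower in young mice, against 14.5% and 7.57% of all features. In aged mice 23 were higher and 18 lower, against 23.8% and 19.7%. The medians were -0.01 and -0.05. The counts per list given next are to be read against the same 23.8% higher and 19.7% lower, and with so few genes in a list none is read as particular to it.

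The other deacetylase genes reached the filter in 3 of 7 cases. In aged mice Hdac8 was at 24.5 CPM in SN and 16.3 in NSN oocytes, a log2 ratio of 0.58 (0.43 to 0.73), and Hdac6, the cytoplasmic tubulin deacetylase, at 44.1 and 31.7 CPM, a ratio of 0.48 (0.37 to 0.59). Hdac9 was farthest from 0 of them by age in NSN oocytes, at -0.15. Hdac5, Hdac7 and Hdac11 had mean counts of 0.092, 0.25 and 1.11, and among the acetyltransferases the Kat2a paralog Kat2b had 0.092. Of the 9 other acetyltransferases that passed, none was past 1.2-fold in any of the 5 comparisons, with Kat14 (0.24) and Taf1 (-0.23) farthest from 0 in aged SN over NSN and Ncoa2 (-0.17) by age in NSN oocytes.

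Among the complexes that hold HDAC1 and HDAC2, the CoREST corepressor gene Rcor3 was at 19.8 CPM in aged SN and 6.15 in aged NSN oocytes, a log2 ratio of 1.69 (1.501 to 1.88), and at 0.80 in young mice, while Hmg20b stood at -0.42 in aged SN over NSN and at 0.23 by age in NSN oocytes. Of 15 SIN3 genes, 4 were past 1.2-fold higher and 5 lower in aged SN oocytes, against 23.8% and 19.7% of all features, and Sap18, at 157 against 233 CPM (-0.57), and Suds3, at 8.69 against 12.8 CPM (-0.56), had the largest ratios. Sap18 was also farthest from 0 by age in NSN oocytes, at 0.18. Of 6 NuRD genes tested, none was higher and 3 were lower (23.8% and 19.7% of all features), with Mbd3 (-0.37) and Mta1 (-0.31) the largest, and Chd4 stood at -0.11 by age. For HDAC3, Tbl1xr1 of the NCoR complex was higher, at 216 against 159 CPM (0.44), and Ncor1 was at -0.11.

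Among the partners of the acetyltransferases, 5 of 18 SAGA and ATAC genes were past 1.2-fold higher in aged SN than in aged NSN oocytes and 3 lower, against 23.8% and 19.7% of all features. Dr1 was at 11.8 against 4.61 CPM (1.35) and Yeats2 at 10.2 against 4.78 CPM (1.09), and Trrap, the scaffold shared with TIP60, was farthest from 0 by age in NSN oocytes at -0.25. In the TIP60 list 3 of 14 were higher and 5 lower, beside the same 23.8% and 19.7%, with the highest ratios in the helicase gene Ruvbl1 (0.62) and Brd8 (0.59), and Morf4l1 stood at 0.19 by age. Of 4 HBO1 scaffold and ING genes, Brpf1 was higher at 0.60 and none lower, Brpf3 was at -0.23, and Brpf1 was at -0.09 by age. Of 10 MSL and NSL genes, 3 were higher and none lower, where 23.8% and 19.7% of all features were, with Kansl2 at 20.5 against 10.5 CPM (0.96) and Ogt at 174 against 117 CPM (0.56).

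The lists of readers and of acetyl-CoA supply had median log2 ratios of -0.15 and 0.22 in aged SN over NSN oocytes. Among the acetyl-lysine reader genes, Brd3 was past 1.2-fold higher in aged SN over NSN oocytes (0.33), and Brd9 was farthest from 0 by age at 0.14. Of 5 genes of acetyl-CoA supply, 2 were higher and none lower, beside 23.8% and 19.7% of all features. They were Acly, the ATP citrate lyase that makes acetyl-CoA from citrate (0.48), and Dlat, a subunit of pyruvate dehydrogenase (0.35), and Acly stood at -0.14 by age in NSN oocytes. Of the further genes named here, Hdac8, Kat14, Suds3, Rcor3, Tbl1xr1, Ncor1, Yeats2, Brd8, Brpf1 and Brd9 overlapped a feature on the opposite strand, and their counts may hold its reads.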

How the data were processed

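Single-oocyte RNA libraries were sequenced as single-end 100-base reads. As the study's methods state, the authors trimmed them (Trim Galore 0.4.4), aligned them to GRCm38 (HiSat2 2.1.0) and counted primary alignments over oocyte transcript features. The deposited values are raw counts per feature; counting program and strand setting are not given in the sources used here. Groups came from the labels, configurations from the study's supplementary listing.

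Features were named by the study's listing (2 members) or by the same-strand GENCODE M21 gene with the highest span overlap (at least 0.3 of the joint span; 8 members). Counts were summed per group and divided by the summed totals, with exact Poisson intervals for levels and exact binomial ones for ratios (95%, counting error only; Python 3.11.15, scipy 1.17.1). Features with a mean count of at least 10 were compared. Dispersion used median of ratios size factors. edgeR 4.0.16 gave TMM factors as an alternative. Scripts were tested on simulated data.

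All members, the 2 genes of each list farthest from 0 in aged SN over NSN, and the 1 farthest in aged over young NSN oocytes were named, except for some genes that are not reported here. Members and lists were chosen with earlier results of these data known.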

Additional observations from a re-analysis of the deposited data

Results flagged for a closer look

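The aged oocyte without a predicted configuration was in no comparison. It had the highest level of 88 oocytes for Hdac3 (28.1 CPM, 101 reads), Kat5 (65.8 CPM, 236 reads) and Kat8 (259 CPM, 931 reads), above the highest young values of 19.1, 44.3 and 173 CPM. It also had the lowest level of Ep300 (10.6 CPM) and of Kat7 (94.8 CPM). The study set the same oocyte aside as an outlier of its distance matrix, and no cause was tested here.

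Among the 8 aged SN oocytes, Kat2a was lowest in oocyte 28A at 25.3 CPM, apart from the next at 32.8 CPM by 0.558 of the whole range, where 0.526 is the critical value. Both ends of 10 genes were examined in that group, 20 gaps in all, so 1 such flag among them can arise by chance.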

How the results depend on the processing

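No paired analysis was possible because the replicate labels are oocyte names that pair no young with an aged oocyte, and no test was made. Among values of single members, 714 stayed within the counting interval or within 0.1 on the log2 scale under the alternatives, and 96 moved. Scaling by TMM or size factors shifted all ratios of a comparison together, by 0.04 or less after rounding.

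Members past 1.2-fold, aged over young, numbered 1. They were 2 with the name suffix A, 0 among features with a mean count of at least 100, and 1 to 3 leaving out 1 run at a time, with 3 without the aged run 25 to 31. In NSN oocytes the number was 1, then 2 by the median of single oocytes, 3 with suffix A, 0 at a mean of at least 100, and 1 to 3 by run, with 3 without the aged run 25 to 31 or 9 to 16. In SN oocytes it was 0, then 2 after thinning, 4 with suffix A, 3 without suffix, and 0 to 3 by run, with 3 without the aged run 41 to 48, and the median ran from -0.12 to 0.071, highest without the young run 17 to 24. SN over NSN in young mice it was 4, then 0 at a mean of at least 100, 2 without oocyte 24A, and 2 to 5 by run, with 2 without the young run 1 to 7 or 17 to 24, and the median ran from 0.051 to 0.23, highest without the run 33 to 39. In aged mice it was 3, then 5 with suffix A, 1 at a mean of at least 100, and 3 to 5 by run, with 5 without the aged run 41 to 48, and the median without suffix was 0.065. The filter itself removes members, since only 5 had a mean count of at least 100.

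The median dispersion ratio of 0.53 was 0.13 to 0.71 by run, lowest without the aged run 25 to 31. It was 0.22 after thinning, 0.80 by the variance of log2(CPM + 1), 0.99 with all 88 oocytes and 0.66 without oocyte 24A. In NSN oocytes the ratio of 0.54 was 0.27 to 0.83 by run, -0.088 after thinning and 0.71 by the log variance. Thinning left Hdac1 and Hdac4 without a value, and the cause of the other shifts was not tested. Alternatives without young oocyte 24A or aged oocyte 15 were chosen after seeing the data. Depth limits Hdac1 and Hdac4 most, with mean counts of 13.5 and 22.9.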
